A study of Mus musculus with 15 samples.

Results

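The genes described here encode histone deacetylases, lysine methyltransferases and lysine demethylases. They were taken by name, as every gene whose symbol begins with Hdac, Sirt, Kmt, Kdm or Setd and goes on with a digit, without the 3 symbols Kdm5c, Kdm5d and Kdm6a. The rule found 49 of 26263 named genes, of which 48 had enough reads to be tested. The exception was Kdm4d, an H3K9 demethylase gene with 0 to 6 counts per library. The 49 genes comprise 4 class I, 4 class IIa, 2 class IIb and 1 class IV deacetylase genes, 7 sirtuin genes, 8 KMT and 8 SETD genes, 2 genes of LSD demethylases and 13 of JmjC demethylases. Methyltransferase genes with other names, such as Ezh2 and Setdb1, and JmjC genes with other names lie outside the rule.

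Deacetylases remove acetyl groups from lysines of histones and other proteins. Class I enzymes work in nuclear corepressor complexes, class IIa proteins bind MEF2 factors and shuttle between nucleus and cytoplasm, class IIb enzymes act largely in the cytoplasm, and sirtuins consume NAD. Methyltransferases with a SET domain add methyl groups to lysines such as H3K4, which marks active promoters and enhancers, H3K36 in transcribed genes, or H4K20, which changes through the cell cycle. LSD demethylases use FAD, whereas JmjC demethylases need oxygen, iron and 2-oxoglutarate, and in neural stem cells both kinds are studied as regulators of the choice between self-renewal and differentiation.

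RNA levels were measured in 15 libraries of neural stem and progenitor cells grown from mouse dorsal telencephalon at E12.5. All cells grew as floating neurospheres with 20 ng/ml EGF and 10 ng/ml FGF, and the study compared loss and gain of Kat6b, which encodes a histone acetyltransferase. KO_B6 (n = 4) is Kat6b-/- on a C57BL/6 background, and its wild type is WT_B6 (n = 3, numbered 1, 2 and 4). Tg_FvB (n = 6) carries Tg(Kat6b), stated to raise the mRNA about 4.5-fold, in mice of mixed FVB and BALB/c descent, because the transgenics were not viable inbred, with WT_FvB (n = 2) as its wild type. Every culture has the litter and embryo number of a donor embryo. No source used here gives the promoter of the transgene or the part of Kat6b that the knockout allele lacks.

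The labels and libraries limit what follows. Tg_FvB samples are titled as knockouts but have a transgenic genotype field, and the columns of Tg_FvB 5 and 6 carry the names of further FvB wild types. The genotype field was followed. Kat6b averaged 63.3 ± 2.21 CPM, counts scaled to library size, in KO_B6 and 84.2 ± 0.778 CPM in WT_B6 (SD, edgeR adjusted p = 0.0571), and since the deleted part is unknown these reads do not check the knockout. In Tg_FvB it averaged 243 ± 54.2 CPM, with all 6 libraries at 140 CPM or more, against 53.1 ± 1.80 CPM in WT_FvB (SD, edgeR adjusted p = 2.38e-04). WT_B6 1 and WT_FvB 2 share 1 litter number and 1 embryo number, with different backgrounds. Total counts of named genes ran from 12336303 to 62819028, and the 49 genes took 0.400% to 0.483% of them. On the principal component that holds 47.9% of the variance, Tg_FvB 5 and 6 scored 3.94 and 4.81, all other FvB libraries at least 33.85, and all B6 libraries less than 0. In 8 pairs of libraries of 1 group the biological coefficient of variation was only 0.0172 to 0.0505, against 0.115 to 0.275 in the other 17 pairs. These near-identical libraries are all 3 of WT_B6, KO_B6 2 and 3, both of WT_FvB, and Tg_FvB 1 to 3, so p-values that count them as separate samples may be too small. Neural stem cell transcripts such as Nes and Sox2 were abundant, whereas the dorsal telencephalon marker Emx1 reached at most 0.128 CPM. Of the microglia and red blood cell markers, C1qa and Hbb-bs were at 0 in all 15 libraries.

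Promoters are shown for the genes with the largest changes in either direction in the knockout, and for the only gene called with the transgene. A promoter here is 300 bases on the gene's strand, from 250 before to 50 after the first listed start, from RefSeq's GRCm38.p6 build of the mouse genome, and 38 of the 49 genes had one. Capitals in the next 4 sequences mark the CCAAT box, searched as CCAAT on both strands (ATTGG where it lies on the other strand), which was found in 42.1% of the 38 promoters and in 37.9% of all 27025. The windows are chr5:124439680-124439979 (plus strand) for Kmt5a, with 4 matches, chr8:95715663-95715962 (plus) for Setd6, with 0, chr7:28766502-28766801 (plus) for Sirt2, with 2, and chr6:91156565-91156864 (plus) for Hdac11, with 1.
Kmt5a: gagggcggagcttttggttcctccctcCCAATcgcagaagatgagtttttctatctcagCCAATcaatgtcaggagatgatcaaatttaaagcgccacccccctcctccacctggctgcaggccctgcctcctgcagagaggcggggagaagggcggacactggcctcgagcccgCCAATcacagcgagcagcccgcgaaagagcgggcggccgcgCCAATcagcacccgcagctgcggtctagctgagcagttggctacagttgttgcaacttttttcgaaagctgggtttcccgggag
Setd6: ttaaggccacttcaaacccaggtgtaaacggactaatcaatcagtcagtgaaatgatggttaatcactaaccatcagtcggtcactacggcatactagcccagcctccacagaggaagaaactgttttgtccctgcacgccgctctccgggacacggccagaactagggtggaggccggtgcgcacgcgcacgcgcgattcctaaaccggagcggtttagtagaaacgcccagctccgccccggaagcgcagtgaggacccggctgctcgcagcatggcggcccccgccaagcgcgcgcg
Sirt2: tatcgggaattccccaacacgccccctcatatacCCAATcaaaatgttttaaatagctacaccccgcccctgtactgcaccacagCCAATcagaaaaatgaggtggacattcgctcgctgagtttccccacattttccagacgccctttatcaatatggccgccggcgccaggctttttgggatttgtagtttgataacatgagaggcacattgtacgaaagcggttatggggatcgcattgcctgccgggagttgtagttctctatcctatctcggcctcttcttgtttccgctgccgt
Hdac11: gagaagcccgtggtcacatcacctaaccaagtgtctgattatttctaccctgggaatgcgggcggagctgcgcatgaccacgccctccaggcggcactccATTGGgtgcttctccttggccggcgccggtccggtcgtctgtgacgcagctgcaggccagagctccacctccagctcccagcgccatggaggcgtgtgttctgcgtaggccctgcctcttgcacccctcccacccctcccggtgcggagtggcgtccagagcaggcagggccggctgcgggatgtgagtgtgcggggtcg
In Kdm3a (chr6:71632868-71633167, minus strand) capitals mark 1 match to the hypoxia response cores ACGTG and GCGTG, which share their last 4 letters and were searched on both strands.
Kdm3a: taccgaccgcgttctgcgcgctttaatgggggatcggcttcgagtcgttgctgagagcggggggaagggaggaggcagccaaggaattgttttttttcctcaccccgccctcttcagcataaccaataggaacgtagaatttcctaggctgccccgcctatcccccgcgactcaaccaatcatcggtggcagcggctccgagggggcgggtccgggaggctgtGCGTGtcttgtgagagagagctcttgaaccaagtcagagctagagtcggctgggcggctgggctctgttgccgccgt
Matches to GCGTG also lie, unmarked, in the windows of Setd6 (3), Hdac11 (2) and Sirt2 (1), and 2 CCAAT matches in that of Kdm3a. GCGTG was found in 52.6% of the 38 promoters and in 32.5% of all, and ACGTG in 23.7% and 19.7%. The GC box GGGCGG was likewise found in 63.2% of the 38 and in 35.9% of all, so a higher share was not particular to GCGTG. A match is a string of letters and no evidence of binding.

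Levels between genes were compared as RPKM, which scales counts by library size and by the deposited gene length. Averaged over the 4 groups, the highest was Hdac2, a class I catalytic subunit of the Sin3, NuRD and CoREST complexes, at 146 RPKM. It was followed by Sirt2 (91.3), Kdm1a (75.0), Hdac3 (59.3), Kmt5a (56.9) and Setd5 (50.1). The leading gene of class IIa was Hdac5 (27.5 RPKM), that of class IIb the tubulin deacetylase gene Hdac6 (11.9), and that of the JmjC family Kdm4a (33.3). At the low end, below 4 RPKM, stood Sirt5 (3.74), Kdm8 (2.83), Setd4 (2.50) and Kdm4d (0.0345).

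**Figure D1:**
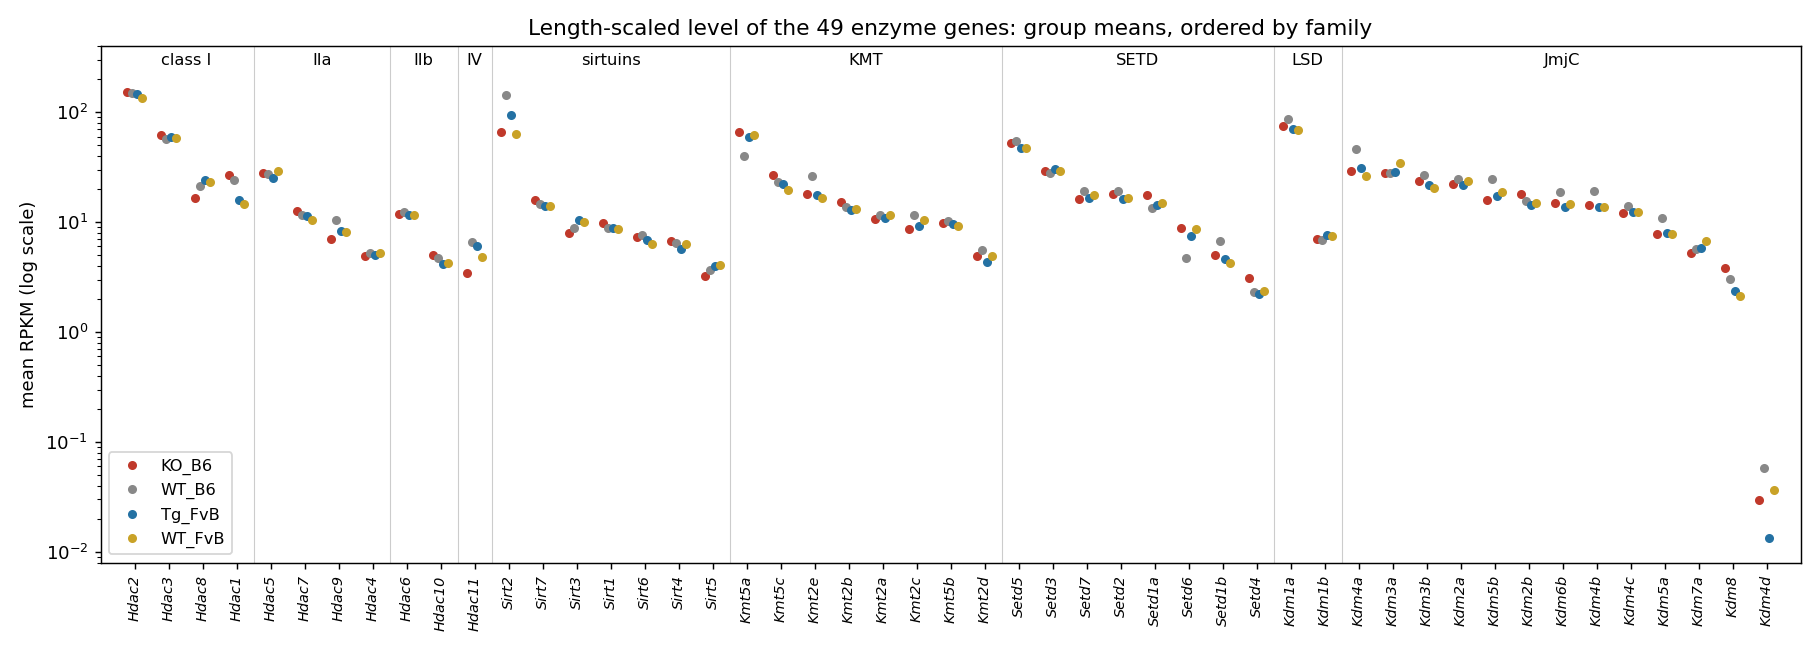
Mean RPKM (log axis) of the 49 genes in KO_B6, WT_B6, Tg_FvB and WT_FvB, ordered by family and then by level. Points of the 4 groups lie close together for most genes beside the span between genes, from Hdac2 at 146 to Kdm4d at 0.0345 RPKM.

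Summed over a family, RPKM in KO_B6 and WT_B6 differed most, as a ratio, for Hdac11, the only class IV gene, and for the sirtuins. Sirtuin genes summed to 116 ± 17.6 RPKM in KO_B6, against 192 ± 2.65 in WT_B6, and to 143 ± 22.6 in Tg_FvB, against 113 ± 1.41 in WT_FvB (SD). JmjC genes summed to 195 ± 2.06 RPKM in KO_B6 and 237 ± 2.65 in WT_B6, and to 191 ± 10.4 in Tg_FvB and 196 ± 1.41 in WT_FvB. The sum of the class I genes was 258 ± 11 RPKM in KO_B6 and 252 ± 4.16 in WT_B6, and 247 ± 19.8 in Tg_FvB and 232 ± 3.54 in WT_FvB. The sirtuin and JmjC ranges did not overlap between KO_B6 and WT_B6, while the class I ranges did. Sirt2 alone carried the sirtuin difference, at 65.5 ± 14.3 RPKM in KO_B6 and 142 ± 2.31 RPKM in WT_B6, and the 6 other sirtuin genes summed to 48 to 54.2 RPKM in KO_B6 and 49.4 to 50.6 RPKM in WT_B6.

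The knockout comparison asks which genes change when Kat6b is lost. Of the 48 enzyme genes tested, 23 were called, 7 higher and 16 lower in KO_B6, by edgeR's quasi-likelihood test at a Benjamini-Hochberg adjusted p under 0.05. Over all 15261 genes tested 45.8% were called, 24.8% higher and 20.9% lower, so 23 of 48 (47.9%) is near the background. The split by direction was 14.6% higher and 33.3% lower among the enzymes, whose median log2 fold change was -0.07, against 0.02 over all genes. The libraries of KO_B6 and WT_B6 did not overlap for 26 of the 48 (54.2%), against 56.3% of all genes. All 23 called genes differed in the same direction within litter 843 and within litter 929, the litters with both genotypes. The same libraries gave the calls, and near-identical ones lie in both litters. WT_B6 2 and KO_B6 2 are of litter 843, and their near-identical partners WT_B6 4 and KO_B6 3 of litter 929. The agreement between litters is thus not independent evidence. With near-identical libraries summed, which leaves WT_B6 as 1 profile, all 23 kept their direction and edgeR called 0 of 48, with 13 at an unadjusted p under 0.05. In bulk RNA, fewer cells that express a gene and less RNA of it per cell cannot be told apart.

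Among the deacetylases 4 of the 18 genes tested fell in KO_B6 and 0 rose, and the 22.2% that fell is near the 20.9% of all genes. Sirt2 encodes a mainly cytoplasmic NAD-dependent tubulin deacetylase, abundant in oligodendrocytes. It stood at 156, 102, 99.6 and 131 CPM in KO_B6 libraries, against 270, 263 and 262 CPM in WT_B6 libraries. Every knockout library lay well below every wild type, and KO_B6 1 was the nearest. The log2 fold change was -1.12 ± 0.19 (SE), with an adjusted p of 2.86e-04 (edgeR). Of 5 oligodendrocyte markers, none at 0 in any library, Olig2 rose in KO_B6 and Sox10 fell. The 5 markers summed to 2510 to 3060 CPM in KO_B6 and 2420 to 2570 CPM in WT_B6. Their mean log2 CPM, in which each marker weighs alike, was lower in KO_B6 (7.50 to 7.74) than in WT_B6 (7.77 to 7.85). All 4 astrocyte markers fell (summed 85.0 to 233 CPM in KO_B6, 409 to 419 CPM in WT_B6). The part of either cell type in the Sirt2 result was not tested.

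Hdac11, the class IV gene, whose product removes fatty acyl groups from lysines, had 10.6, 7.45, 7.70 and 8.65 CPM in KO_B6 and 14.4, 16.7 and 18.3 CPM in WT_B6. The groups did not overlap, and edgeR gave a log2 fold change of -0.95 ± 0.19 with an adjusted p of 0.00107. An opposite-strand gene, Gm44002, shares 15.4% of the Hdac11 exon bases, and no source used here says whether counting used strand. Hdac9, a class IIa corepressor of MEF2 factors, stood at 33.2, 29.0, 30.7 and 30.2 CPM in KO_B6 and 44.7, 47.3 and 47.3 CPM in WT_B6. It was lower in all 4 knockout libraries (log2 fold change -0.59 ± 0.10, edgeR adjusted p = 2.23e-04). Among 22 MEF2 factors, kinases and 14-3-3 genes linked to class IIa deacetylases, 5 rose (22.7%, against 24.8% of all genes), led by the calcium-dependent kinase genes Camk2a (1.13) and Camk2b (0.83), and 3 fell (13.6%, against 20.9%). The X-linked Hdac8, whose product deacetylates cohesin, had 31.6, 27.3, 27 and 28.1 CPM in KO_B6 and 34.9, 38.1 and 36.6 CPM in WT_B6 (log2 fold change -0.36 ± 0.09, edgeR adjusted p = 0.00532). KO_B6 4, the library with 0.640 CPM of Xist against 1420 to 3150 in all others, lay among the other knockouts for Hdac8. No WT_B6 library was low in Xist, and the part of this trait in the Hdac8 result was not tested.

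The other deacetylase genes were not called. The most abundant, Hdac2, stood at 332, 306, 304 and 289 CPM in KO_B6 and 289, 307 and 302 CPM in WT_B6, and the groups overlapped. Hdac1 lay at 50.7 to 54.4 CPM in KO_B6, above all WT_B6 libraries (46.3 to 48.5 CPM), but with a log2 fold change of 0.14 ± 0.12 (edgeR adjusted p = 0.385). Hdac5, the leading class IIa gene, had 105, 104, 101 and 113 CPM in KO_B6 and 109, 101 and 101 CPM in WT_B6, and Hdac6, the leading class IIb gene, 50.7, 47.5, 48 and 50.1 CPM in KO_B6 and 52.2, 50.9 and 51.5 CPM in WT_B6. Hdac5 overlapped between the groups, and Hdac6 lay just below the wild types in all 4 knockout libraries. Hdac5 (0.03), Hdac6 (-0.07), Hdac10 (0.08) and the 6 other sirtuin genes (from -0.17 for Sirt5 to 0.18 for Sirt1) showed log2 fold changes of at most 0.18 in size.

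Methyltransferase genes moved in both directions, 5 of 16 higher (31.2%, against 24.8% of all genes) and 3 lower (18.8%, against 20.9%). Setd6, whose product methylates the NF-kappaB subunit RelA, had 12.9, 16.3, 14.9 and 15.2 CPM in KO_B6, against 8.40, 7.79 and 7.54 CPM in WT_B6. This was the largest rise of the 48 genes (log2 fold change 0.91 ± 0.11, edgeR adjusted p = 2.4e-05). Kmt5a, the H4K20 monomethyltransferase gene also called SET8, stood at 176, 185, 181 and 177 CPM in KO_B6 and at 110 CPM in each WT_B6 library. No knockout library came near a wild type, and edgeR gave a log2 fold change of 0.71 ± 0.08 with an adjusted p of 1.61e-05. All 25 DNA replication and G1/S genes rose in KO_B6, with summed levels of 3000 to 3510 CPM, against 2070 to 2130 CPM in WT_B6, and 15 of 19 mitosis genes rose. The part of cell cycle state in the rise of Kmt5a was not tested.

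Setd1a and Setd1b, catalytic subunits of the SET1 complexes that methylate H3K4, went opposite ways. Setd1a had 96.9, 108, 105 and 113 CPM in KO_B6 and 84.4, 76.4 and 77.4 CPM in WT_B6 (log2 fold change 0.41 ± 0.08, edgeR adjusted p = 6.16e-04). Setd1b had 35.8, 49.3, 46.0 and 43.6 CPM in KO_B6 and 61.8, 57 and 55.5 CPM in WT_B6 (log2 fold change -0.41 ± 0.10, edgeR adjusted p = 0.00504). In neither gene did the groups overlap, but Setd1a shares 51.8% of its exon bases with Gm49388 on the same strand, so its count is uncertain. Kmt2e, an MLL family gene whose protein binds chromatin and has no clear enzymatic activity, stood at 134, 131, 134 and 130 CPM in KO_B6 and 190, 186 and 193 CPM in WT_B6. That fall (log2 fold change -0.52 ± 0.08, edgeR adjusted p = 1.57e-04) was present in all 4 knockout libraries, and Kmt2e shares 9.31% of its exon bases with Srpk2 on the opposite strand.

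The remaining methyltransferase calls were smaller or rested on single libraries. Setd4 had 5.99, 5.23, 6.09 and 5.29 CPM in KO_B6 and 5.18, 3.71 and 3.87 CPM in WT_B6, so that the highest wild type lay just under the lowest knockout. Its log2 fold change was 0.42 ± 0.14 (edgeR adjusted p = 0.0258), and the call was lost without WT_B6 2 (adjusted p = 0.161), WT_B6 4 (0.140), KO_B6 1 (0.0634) or KO_B6 3 (0.0837). Kmt5c, which trimethylates H4K20, overlapped between the groups at 61.8, 55.9, 54.3 and 67.0 CPM in KO_B6 and 55.8, 50.1 and 50.3 CPM in WT_B6. edgeR called it with an adjusted p of 0.0413 (log2 fold change 0.20 ± 0.08), but only 5 of 24 settings did, litter as a covariate not among them (0.0526), and the p was 0.216 without WT_B6 2, 0.210 without WT_B6 4, 0.134 without KO_B6 1, 0.126 without KO_B6 4 and 0.0554 without KO_B6 2. Leaving out any 1 FvB library other than Tg_FvB 1 or 4 also lost that call (adjusted p from 0.0505 to 0.0779, edgeR). Setd7, which monomethylates H3K4, had 117, 125, 127 and 113 CPM in KO_B6 and 143, 142 and 139 CPM in WT_B6 (log2 fold change -0.23 ± 0.07, edgeR adjusted p = 0.0172, 0.0529 without WT_B6 1 and 0.082 with litter as a covariate). Setd5, the most abundant SETD gene, had 324, 353, 348 and 332 CPM in KO_B6 and 353, 351 and 346 CPM in WT_B6, with overlap and no call. The H3K36 methyltransferase gene Setd2 (-0.08) and the actin histidine methyltransferase gene Setd3 (0.07) were not called.

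**Figure D2:**
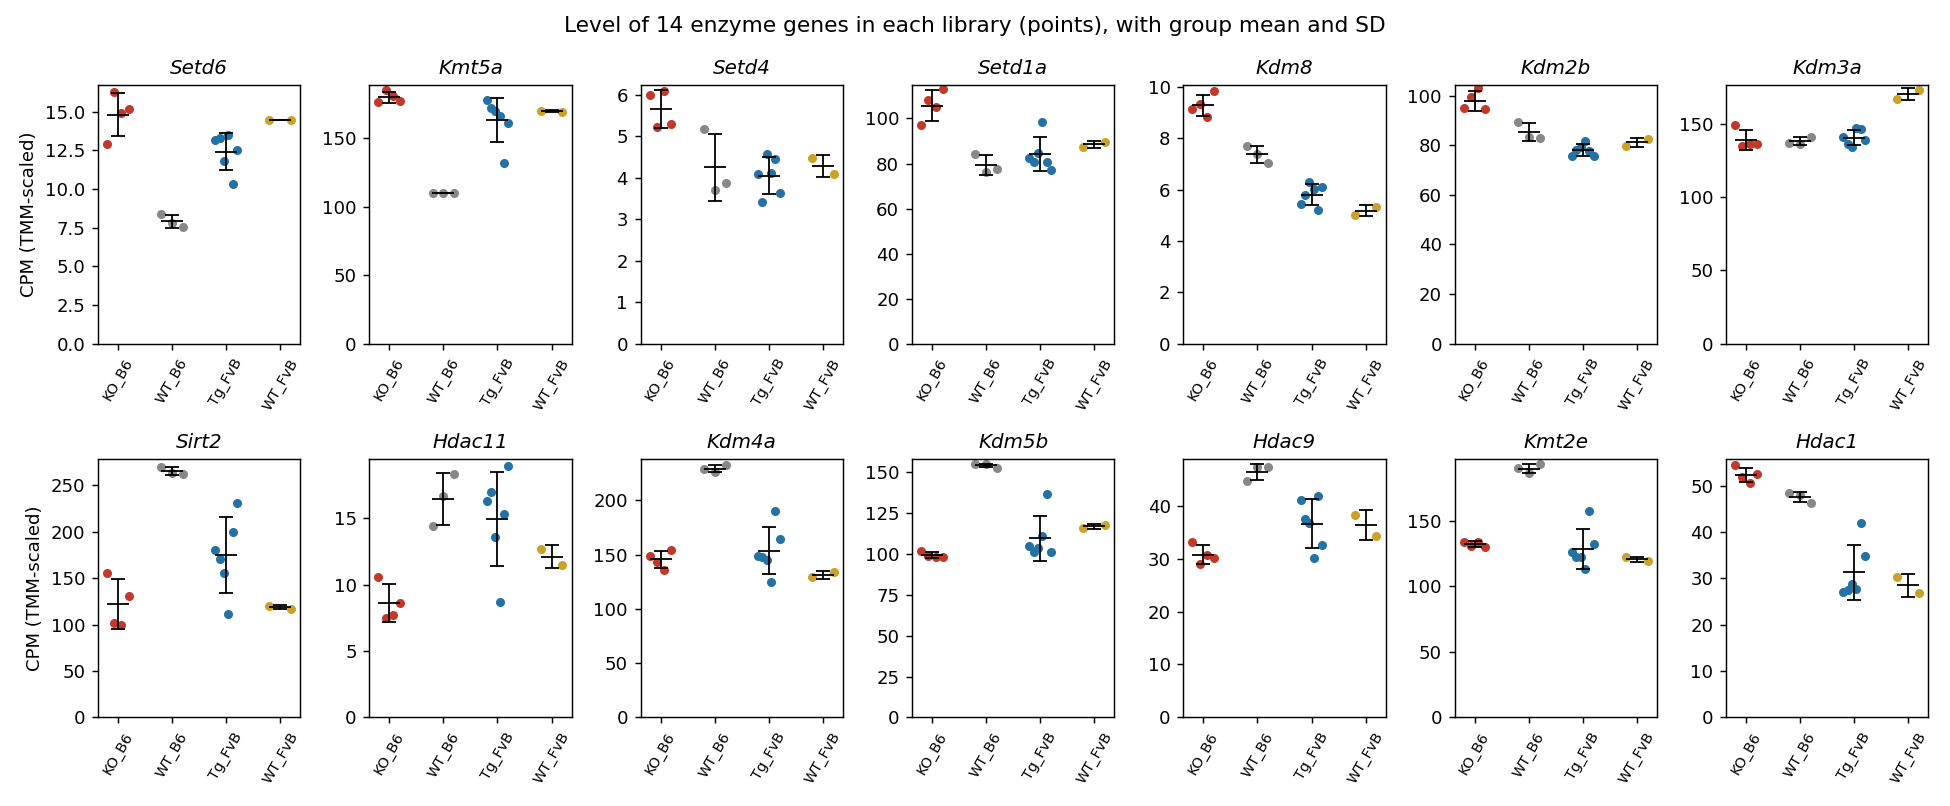
CPM in every library (points) with group means and SD (bars) for 14 genes, in KO_B6, WT_B6, Tg_FvB and WT_FvB from left to right; every axis starts at 0. Setd6 and Kmt5a sit higher and Sirt2, Kdm4a and Kmt2e lower in KO_B6 than in WT_B6, and for these 5 genes WT_FvB also stands away from WT_B6.

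Demethylase genes were mostly lower in the knockout. Of 12 JmjC genes tested 8 fell and 2 rose (median log2 fold change -0.19), and of the LSD genes Kdm1a fell and Kdm1b (0.06) was not called. Falls made up 64.3% of these 14 genes, against 20.9% of all genes, and rises 14.3%, against 24.8%. Kdm4a, an H3K9 and H3K36 demethylase gene, stood at 149, 143, 136 and 154 CPM in KO_B6 and 229, 226 and 233 CPM in WT_B6. The groups lay far apart, with a log2 fold change of -0.66 ± 0.10 (edgeR adjusted p = 1.33e-04). Kdm5b, an H3K4 demethylase gene, had 102, 99.0, 98.1 and 98.4 CPM in KO_B6 and 155, 155 and 153 CPM in WT_B6 (log2 fold change -0.64 ± 0.08, edgeR adjusted p = 4.8e-05). Its relative Kdm5a had 78.6, 86.7, 89.1 and 85.0 CPM in KO_B6 and 118, 118 and 120 CPM in WT_B6 (log2 fold change -0.48 ± 0.08, edgeR adjusted p = 1.6e-04). Kdm5a and Kdm5b were thus lower in every knockout library than in any WT_B6 library.

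The other falls were Kdm4b (log2 fold change -0.41 ± 0.07), Kdm6b, which demethylates H3K27 (-0.34 ± 0.11), Kdm4c (-0.20 ± 0.06), Kdm3b (-0.18 ± 0.05) and the CpG island-binding H3K36 demethylase gene Kdm2a (-0.13 ± 0.05). With litter as a covariate, edgeR did not call Kdm6b (adjusted p = 0.132), Kdm2a (0.132), Kdm3b (0.0545) or Kdm4c (0.0518). Kdm6b was not called without WT_B6 1 (edgeR adjusted p = 0.0988), and Kdm2a, at an adjusted p of 0.0464, was lost on leaving out any of WT_B6 1, 2 or 4, KO_B6 4 or Tg_FvB 1, 2 or 3 (edgeR adjusted p from 0.0511 to 0.0905). Kdm1a, the LSD1 subunit of the CoREST corepressor, had 230, 226, 226 and 215 CPM in KO_B6 and 256, 264 and 267 CPM in WT_B6. Its groups did not overlap, although the change was small (log2 fold change -0.23 ± 0.05, edgeR adjusted p = 0.003).

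Kdm2b and Kdm8 went the other way. Kdm2b, which brings a Polycomb complex to CpG islands, had 95, 99.6, 103 and 94.5 CPM in KO_B6 and 89.4, 83.4 and 82.9 CPM in WT_B6 (log2 fold change 0.20 ± 0.05, edgeR adjusted p = 0.00456). Kdm8, a JmjC hydroxylase gene also called JMJD5, had 9.13, 9.33, 8.83 and 9.84 CPM in KO_B6 and 7.69, 7.40 and 7.05 CPM in WT_B6 (log2 fold change 0.33 ± 0.09, edgeR adjusted p = 0.0091). Groups did not overlap for either gene, but without WT_B6 4 neither was called (edgeR adjusted p = 0.0538 for Kdm2b and 0.0693 for Kdm8), and the count of higher calls over the 48 genes was then 3 in place of 7. Kdm3a was not called in the knockout (149, 135, 136 and 136 CPM in KO_B6, 137, 136 and 141 CPM in WT_B6, log2 fold change 0.01 ± 0.05, and -0.05 without KO_B6 1).

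By main histone substrate, a grouping made after the values had been seen, 0 of 4 H3K4 demethylase genes rose in KO_B6 and 3 fell (median log2 fold change -0.35). Of 7 H3K4 methyltransferase genes 1 rose and 2 fell (median -0.16). Of 6 tested H3K9 demethylase genes 0 rose and 4 fell (median -0.19), and of 3 H4K20 methyltransferase genes 2 rose, 1 of them the loosely supported Kmt5c, and 0 fell (median 0.20). Over all 15261 genes 24.8% rose, 20.9% fell and the median was 0.02, and groups of 3 to 7 genes chosen in this way say little against those shares.

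**Figure D3:**
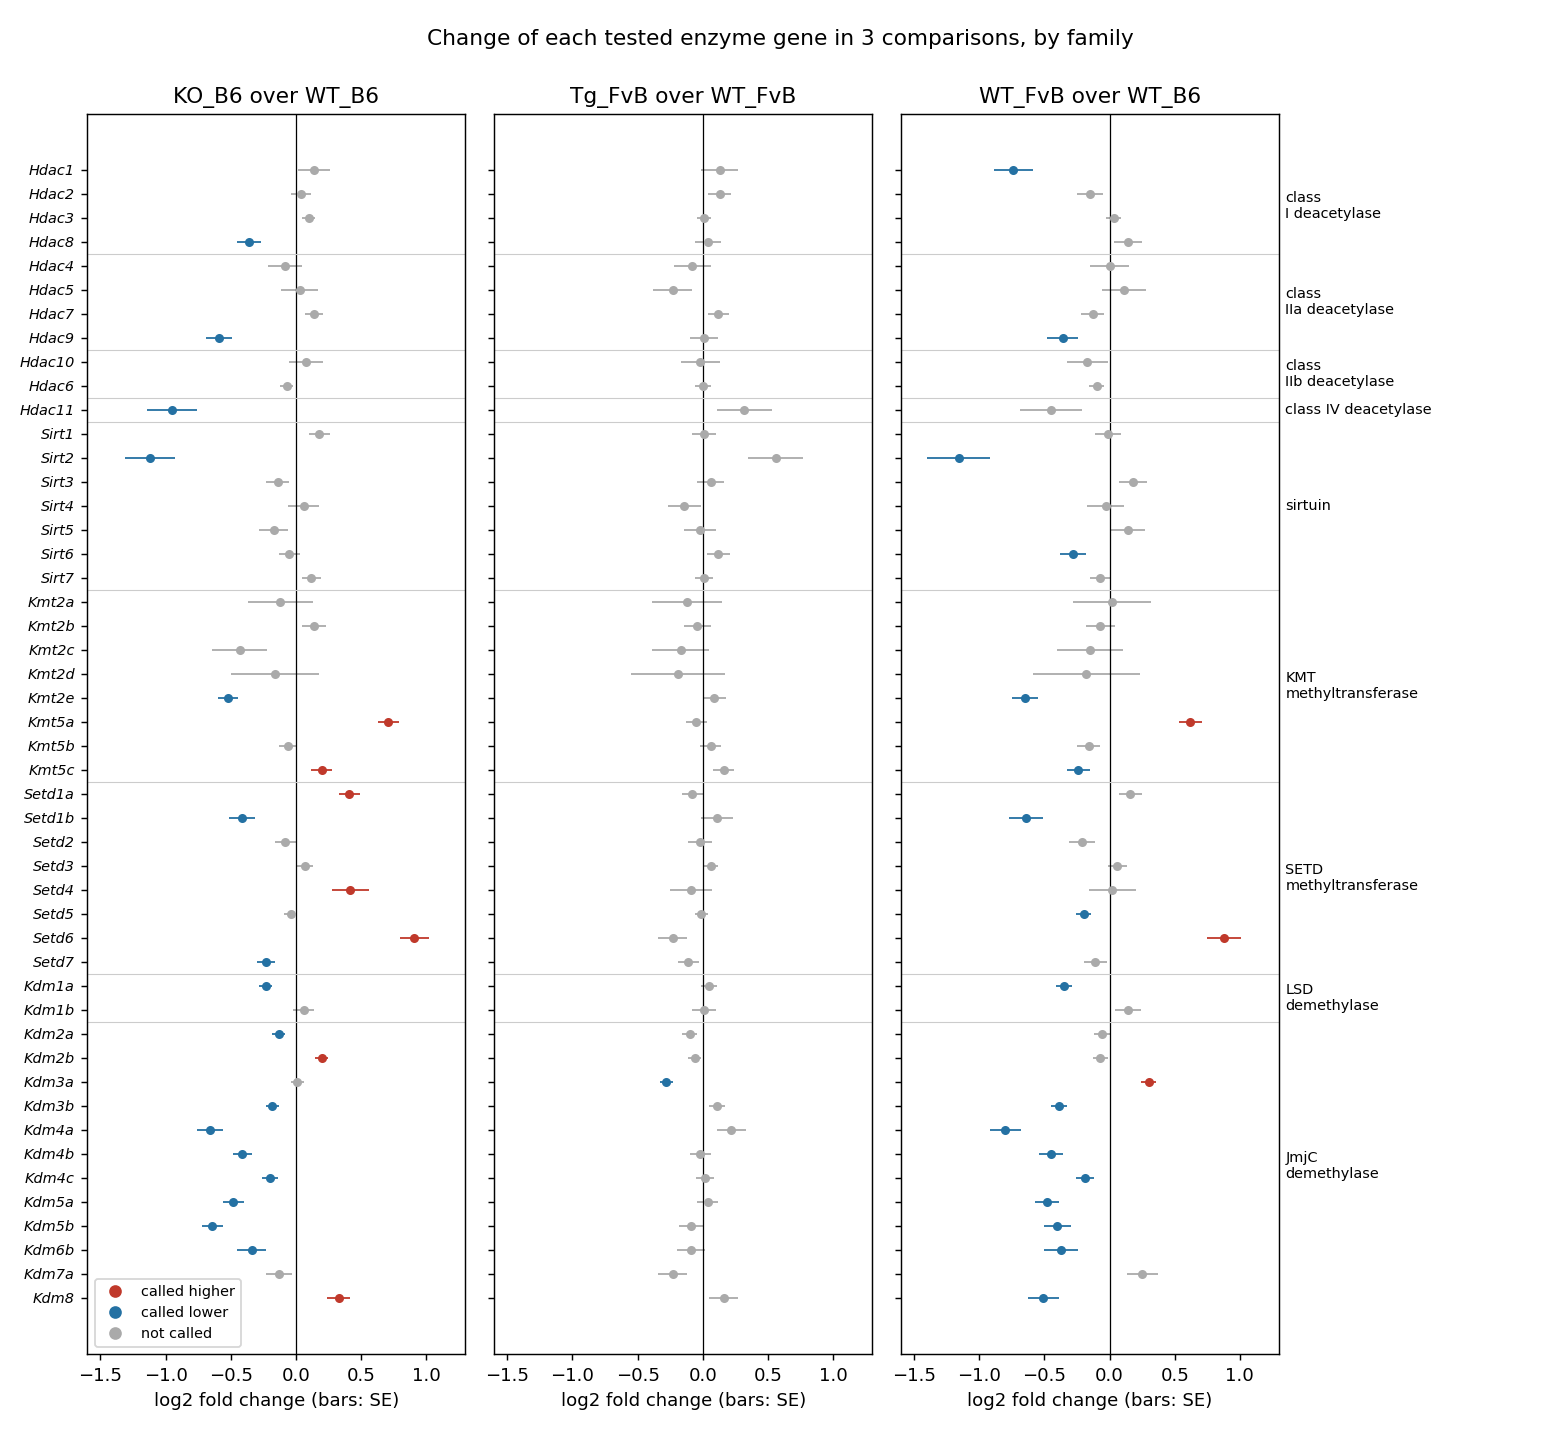
Log2 fold change with its standard error for the 48 tested genes, by family, in KO_B6 over WT_B6, Tg_FvB over WT_FvB and WT_FvB over WT_B6 (red called higher, blue called lower, grey not called, edgeR adjusted p under 0.05). The knockout panel has 23 called genes, the transgene panel 1 (Kdm3a), and the panel of the wild types 20.

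The transgene comparison asks which genes change when Kat6b is in excess. Only 1 of the 48 genes, 2.08%, was called in Tg_FvB, as a fall, against 1.84% of all genes tested (0.681% higher and 1.16% lower), and 3 of 48 (6.25%) had an unadjusted p under 0.05, against 18.3% of all. The called gene was Kdm3a, an H3K9 demethylase gene known to be induced by low oxygen. Its CPM was 141, 136, 134, 147, 146 and 139 in Tg_FvB, against 167 and 173 in WT_FvB. No transgenic library reached a wild type, and edgeR gave a log2 fold change of -0.28 ± 0.05 with an adjusted p of 0.0247. The call was lost without WT_FvB 1 (edgeR adjusted p = 0.294) or WT_FvB 2 (0.353), where the lone wild type is taken to vary as the other groups do, and without Tg_FvB 1, 2 or 3 (0.0544, 0.0609 and 0.0554). It was also lost with litter as a covariate (0.153), in a fit of Tg_FvB and WT_FvB alone (0.131) and with near-identical libraries summed (adjusted p = 1), where 0 of 48 genes were called and 1 had an unadjusted p under 0.05. Without Tg_FvB 5 and 6 it stayed called (log2 fold change -0.30, edgeR adjusted p = 0.0094).

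Genes of hypoxia and glycolysis were also lower in Tg_FvB than in WT_FvB. Of 28 such genes 12 fell in Tg_FvB (42.9%, against 1.16% of all genes) and 0 rose. Their median log2 fold change was -0.96, against 0.01 over all genes. Summed levels were 4010 to 6570 CPM in Tg_FvB and 7880 to 7890 CPM in WT_FvB. The genes that fell include Ndrg1 (log2 fold change -2.80) and the glucose transporter gene Slc2a1 (-1.42). In the knockout 16 of the 28 rose (57.1%, against 24.8% of all genes) and 1 fell (3.57%, against 20.9%). Their sums were 3770 to 5150 CPM in KO_B6 and 3370 to 3490 CPM in WT_B6, while Kdm3a had a log2 fold change of 0.01. The WT_FvB libraries had the highest sums and the highest Kdm3a of all 15 libraries, with Kdm3a at 136 to 141 CPM in WT_B6. The part of oxygen supply in the Kdm3a result was not tested.

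Other enzyme genes were not called with the transgene. The largest value was that of Sirt2, at 180, 171, 156, 111, 200 and 231 CPM in Tg_FvB and 120 and 117 CPM in WT_FvB. Tg_FvB 4 lay below both wild types and the other 5 libraries above them, and the log2 fold change of 0.56 ± 0.21 missed the threshold (edgeR adjusted p = 0.181). Without Tg_FvB 4 it was 0.66 and called (edgeR adjusted p = 0.0215). That library was nearer to both wild types over all genes than to any other transgenic library. Its biological coefficient of variation was 0.100 and 0.0903 with WT_FvB 1 and 2, and 0.136 to 0.275 with the other transgenics. Kat6b in Tg_FvB 4 nonetheless stood at 229 CPM, against 54.4 and 51.8 CPM in WT_FvB. Of the 5 oligodendrocyte markers Sox10 rose (log2 fold change 1.20) and 0 fell in Tg_FvB. They summed to 1860 to 2620 CPM in Tg_FvB and 2070 to 2090 CPM in WT_FvB. Their mean log2 CPM was 7.52 to 8.09 in Tg_FvB and 7.52 to 7.54 in WT_FvB. Of the 4 astrocyte markers 3 fell and 0 rose (summed 254 to 424 CPM in Tg_FvB, 535 to 539 CPM in WT_FvB). The part of either cell type in the Sirt2 values was not tested. Setd6 and Kdm7a were lower in all 6 transgenic libraries than in both wild types, each with a log2 fold change of -0.23, and Kdm3b was higher in all 6 (0.11), but none of them was called (edgeR adjusted p = 0.299, 0.272 and 0.298). Over the 48 genes, 4 (8.33%) had groups without overlap, against 16% of all genes. A p that misses the threshold does not show that the levels are equal.

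The effects of loss and gain of Kat6b were compared as the difference of the log2 fold changes, knockout minus transgene. Loss was measured on C57BL/6 only and gain in the FVB and BALB/c mix only. A difference between loss and gain therefore cannot be told apart from 1 between backgrounds. The difference was called for 17 of the 48 genes, 5 positive and 12 negative. That is 35.4%, against 37.3% of all genes tested (19.6% positive and 17.8% negative). The 6 largest were Sirt2 (-1.68 ± 0.29, edgeR adjusted p = 7.44e-04), Hdac11 (-1.27 ± 0.29, 0.00398), Setd6 (1.14 ± 0.15, 2.4e-04), Kdm4a (-0.88 ± 0.15, 7.29e-04), Kmt5a (0.76 ± 0.11, 3.74e-04) and Kmt2e (-0.61 ± 0.12, 0.00179). Setd6 had 10.3 to 13.5 CPM in Tg_FvB and 14.5 and 14.5 CPM in WT_FvB, and Kmt5a 178, 172, 170, 166, 132 and 161 CPM in Tg_FvB and 170 and 169 CPM in WT_FvB. Kmt2e had 126, 122, 122, 113, 157 and 132 CPM in Tg_FvB and 122 and 119 CPM in WT_FvB. Setd6 lay below both wild types in all 6 transgenic libraries, while Kmt5a and Kmt2e overlapped. In Tg_FvB, Hdac11 had 16.3, 17.0, 13.6, 8.71, 15.3 and 18.9 CPM, against 12.7 and 11.5 CPM in WT_FvB (log2 fold change 0.32, not called). The transgenic libraries overlapped the wild types there, and likewise for Kdm4a (149, 148, 145, 125, 190 and 164 CPM in Tg_FvB, 129 and 134 CPM in WT_FvB). The difference contains the knockout effect, so its calls do not add to those of the knockout. With near-identical libraries summed all 17 kept their sign and 0 were called, with 9 at an unadjusted p under 0.05 (edgeR). Smaller differences also rested on single wild types: without WT_FvB 1, Kdm4b, Kdm1a, Setd1b and Hdac8 were not called (edgeR adjusted p = 0.0709, 0.0617, 0.0658 and 0.109), and without WT_FvB 2, Kdm2b, Setd1b, Kdm3a and Hdac8 were not (0.103, 0.0542, 0.0733 and 0.0722). Hdac8 was also lost without WT_B6 2 (edgeR adjusted p = 0.0639) or WT_B6 4 (0.0505), and Kdm2b without WT_B6 4 (0.0529), with Kdm2b at the threshold of 0.05 without WT_B6 2. With litter as a covariate Kdm5b, Kdm4b, Kdm3b, Kdm1a, Setd1b, Kdm3a and Hdac8 were not called (edgeR adjusted p from 0.0544 to 0.201).

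The wild types of the study differ in background, and neither carries a targeted change of Kat6b, but Kat6b itself was lower in WT_FvB (53.1 ± 1.80 CPM) than in WT_B6 (84.2 ± 0.778 CPM, SD, log2 fold change -0.66, edgeR adjusted p = 0.0157). Its close relative Kat6a was lower too (-0.33, edgeR adjusted p = 0.00566). The comparison uses the same WT_B6 libraries as the knockout comparison and the same WT_FvB libraries as the transgene comparison, so likeness between them is not independent evidence, and strain and culture cannot be told apart. In WT_FvB, 20 of the 48 genes were called against WT_B6, 3 higher and 17 lower. That is 41.7%, with 48.9% over all genes tested. Higher calls made up 6.25% of the 48 and 25.4% of all genes, and lower calls 35.4% and 23.5%. The median log2 fold change was -0.14, against 0.02 over all genes, and the libraries did not overlap for 41 of the 48 (85.4%), against 78.3% of all genes. With near-identical libraries summed, 1 profile per wild type, all 20 kept their direction and edgeR called 0, with 11 at an unadjusted p under 0.05.

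The genes higher in WT_FvB were Setd6 (14.5 and 14.5 CPM in WT_FvB, 8.40, 7.79 and 7.54 CPM in WT_B6), Kmt5a (170 and 169 CPM in WT_FvB, 110 in each WT_B6 library) and Kdm3a (167 and 173 CPM in WT_FvB, 137, 136 and 141 CPM in WT_B6). Their log2 fold changes were 0.88 ± 0.13, 0.62 ± 0.09 and 0.30 ± 0.06 (edgeR adjusted p = 1.42e-04, 1.61e-04 and 0.00109). For Setd6 both WT_FvB libraries lay within the KO_B6 range, and for Kmt5a just below it. Among the 25 replication genes, 24 were higher in WT_FvB (summed 3160 CPM in each WT_FvB library, 2070 to 2130 CPM in WT_B6), as were 25 of 28 hypoxia and glycolysis genes, and the part of either in these 3 values was not tested. Within Tg_FvB, library 5 had both the lowest Kmt5a (132 CPM) and the lowest replication sum (2340 CPM). Library 4 had the highest replication sum (3290 CPM), with Kmt5a at 166 CPM, below libraries 1 to 3 (178, 172 and 170 CPM). A relation between the 2 was not tested.

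The largest falls between the wild types were those of Sirt2, Kdm4a, Hdac1 and Kmt2e. Sirt2 stood at 120 and 117 CPM in WT_FvB and 270, 263 and 262 CPM in WT_B6 (log2 fold change -1.16 ± 0.24, edgeR adjusted p = 0.00125). Of the 4 astrocyte markers 3 were higher and 0 lower in WT_FvB. Of the 5 oligodendrocyte markers 1 was higher and 3 were lower, and the part of either cell type in the Sirt2 fall was not tested. Kdm4a had 129 and 134 CPM in WT_FvB and 229, 226 and 233 CPM in WT_B6 (log2 fold change -0.80 ± 0.12, edgeR adjusted p = 2.04e-04), and Kmt2e 122 and 119 CPM in WT_FvB and 190, 186 and 193 CPM in WT_B6 (-0.65 ± 0.10, 2.13e-04). For these 3 genes KO_B6 and WT_FvB both lay below WT_B6. Hdac1 differed from them, with 30.3 and 26.8 CPM in WT_FvB and 48.5, 48.0 and 46.3 CPM in WT_B6 (log2 fold change -0.74 ± 0.15, edgeR adjusted p = 0.00143), and 50.7 to 54.4 CPM in KO_B6. By family, 8 of 12 JmjC genes were lower in WT_FvB, against 23.5% of all genes, and 1 higher, against 25.4%. The 8 include Kdm6b and Kdm4c, whose calls were lost in settings given below. The LSD gene Kdm1a, the sirtuin gene Sirt6 and the SETD genes Setd1b and Setd5 were lower too. Sirt6 was not called without WT_B6 1 (edgeR adjusted p = 0.0667) or WT_FvB 1 (0.191), nor Setd5 without WT_FvB 1 (0.0723). With litter as a covariate, Sirt6, Setd5, Hdac9, Kdm6b, Kdm4c and Kmt5c all lost the call (edgeR adjusted p from 0.0576 to 0.266). Hdac9 lost its call without WT_B6 2 (0.0539), WT_B6 4 (0.0541) or WT_FvB 2 (0.167), and Kdm6b without WT_B6 1 (0.101), WT_FvB 1 (0.0975) or WT_FvB 2 (0.113) in the same test. The weakest calls were Kmt5c (adjusted p = 0.0433, edgeR) and Kdm4c (0.0497), which were lost on leaving out single libraries. For Kmt5c these were WT_B6 1, 2 or 4, WT_FvB 1 or Tg_FvB 1, 2 or 3 (edgeR adjusted p from 0.0507 to 0.3). For Kdm4c they were any of WT_B6 or WT_FvB, KO_B6 3 or 4, or Tg_FvB 1, 2 or 3 (edgeR adjusted p from 0.0501 to 0.186).

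Tg_FvB 5 stood apart in these genes as well, and Tg_FvB 6 hardly did. Of the 20 genes called between the wild types, Tg_FvB 5 was nearer to WT_B6 than to WT_FvB for 10 and Tg_FvB 6 for 5, while the other 4 transgenic libraries were nearer to WT_B6 for 2 to 4. For Hdac1 the values were 41.9 CPM in Tg_FvB 5 and 34.9 in Tg_FvB 6, and 27.1 to 28.9 CPM in Tg_FvB 1 to 4. Without both libraries the numbers of called enzyme genes were 23 in the knockout, 1 with the transgene, 17 for the difference and 21 between the wild types.

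The H3K4 methyltransferase genes Kmt2a, Kmt2c and Kmt2d, known as MLL1, MLL3 and MLL4, varied most within groups. Kmt2d had 52.6, 122, 122 and 94.2 CPM in KO_B6 and 121, 104 and 103 CPM in WT_B6, and 64.7, 73.3, 81.4, 142, 111 and 38.3 CPM in Tg_FvB and 90.6 and 103 CPM in WT_FvB. Kmt2a had 90.6, 223, 216 and 169 CPM in KO_B6 and 191, 187 and 191 CPM in WT_B6. In both genes KO_B6 1 was lowest of the knockouts, and for Kmt2d Tg_FvB 6 was the lowest and Tg_FvB 4 the highest library of all. The SD of log2 CPM within groups was 0.445 for Kmt2d, 0.349 for Kmt2a and 0.279 for Kmt2c, against a median of 0.094 over the 48 genes.

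These 3 genes are also the longest of the 48, and other long genes moved with them. Over the 287 other genes of 10000 bases or more, the median deviation from the group median was -0.38 in KO_B6 1, -0.32 in Tg_FvB 6, 0.20 in Tg_FvB 4 and 0.15 in Tg_FvB 5 (log2 CPM), and between -0.03 and 0.06 in the other libraries. In KO_B6 1 Kmt2d, Kmt2c and Kmt2a deviated by -1.02, -0.82 and -1.08, and the fourth long enzyme gene, Kdm5a, by -0.13. Genes under 2000 bases showed medians between -0.02 and 0.07 throughout. Across the 48 genes length and SD showed no general relation (Spearman's rho 0.02, across genes, which are not replicates). Kmt2c had a log2 fold change of -0.43 ± 0.21 in the knockout, which edgeR did not call (adjusted p = 0.101). Without KO_B6 1 that value was -0.28 (edgeR adjusted p = 0.173), and without KO_B6 1, Tg_FvB 4 and Tg_FvB 6, a setting chosen after seeing the data, it was -0.28 and called (edgeR adjusted p = 0.0284). RNA quality was not given in the sources used here, and its part was not tested.

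**Figure D4:**
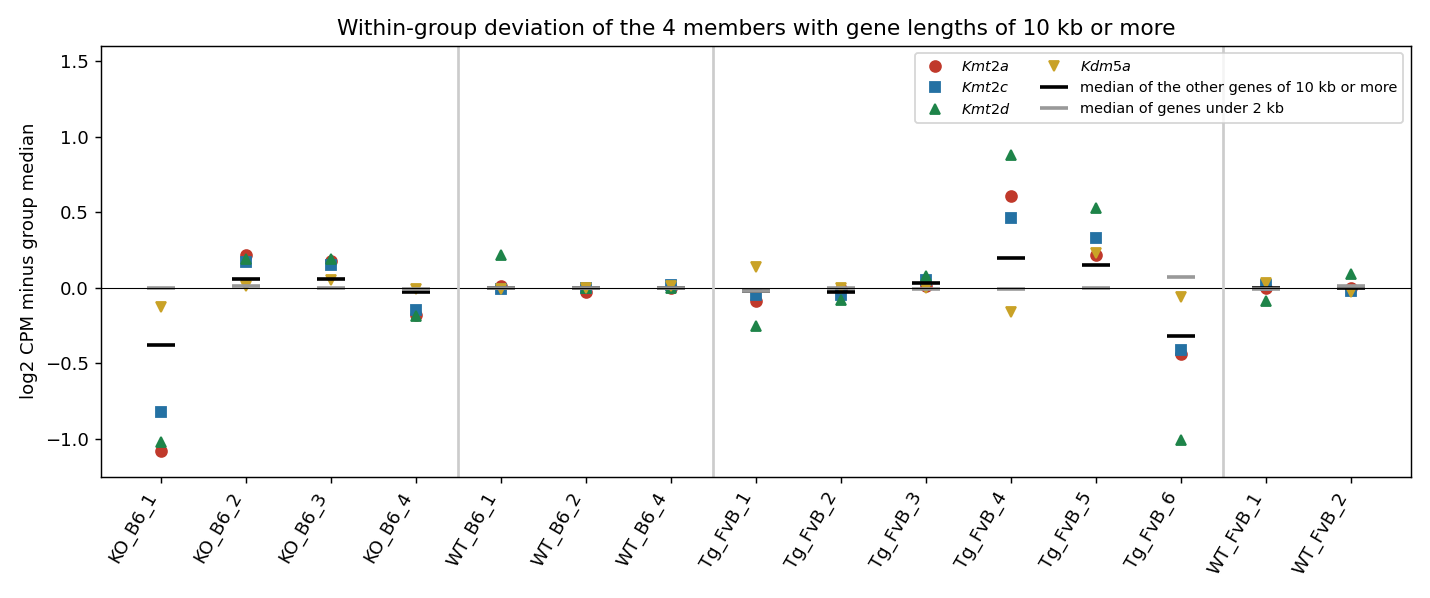
Deviation of log2 CPM from the group median in each library for the 4 enzyme genes of 10000 bases or more (symbols), beside the median of 287 other such genes (black bars) and of 4877 genes under 2000 bases (grey bars). KO_B6 1 and Tg_FvB 6 lie low and Tg_FvB 4 high for Kmt2a, Kmt2c and Kmt2d, in the direction of the other long genes.

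Genes that work with these enzymes were read from lists outside the naming rule, beside which stand the shares of all genes, 24.8% higher and 20.9% lower in the knockout and 1.84% called with the transgene. Of 38 subunits of deacetylase complexes 12 rose (31.6%) and 8 fell (21.1%) in KO_B6, both near those shares (median log2 fold change 0.01), with the MIER family gene Mier2 (0.80) and the histone-binding gene Rbbp7 (0.45) as the largest rises and the NuRD remodeller gene Chd3 (-0.80) and Phf21a (-0.50) among the largest falls. In Tg_FvB only Chd3 was called, and it rose (log2 fold change 0.79). Of 17 subunits and partners of MLL and COMPASS complexes 6 rose (35.3%) and 0 fell in KO_B6 (median 0.14), led by Akap8 (0.69) and Paxip1 (0.50), and in Tg_FvB 0 were called. Among 14 genes of NAD metabolism, which supplies the cosubstrate of sirtuins, 3 rose and 3 fell in KO_B6 (21.4% each), and Nampt, the rate-limiting enzyme of NAD salvage, rose (0.62). In Tg_FvB Nampt fell (-0.44) and Sarm1, an NAD hydrolase gene, rose (0.47).

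Methyltransferase genes under other names rose and fell in the knockout. Of 21 further lysine methyltransferase genes tested 8 rose (38.1%) and 3 fell (14.3%) in KO_B6 (median log2 fold change 0.09), with Smyd5 (0.88) and the H3K9 methyltransferase gene Suv39h2 (0.56) as the largest rises and the Polycomb methyltransferase gene Ezh1 (-0.87) and Smyd3 (-0.35) as the largest falls. Of 8 arginine methyltransferase genes 5 rose (62.5%) and 1 fell (median 0.46). Prmt3, which methylates a ribosomal protein, had 79.2, 83.7, 83.4 and 74.4 CPM in KO_B6 and 53.0, 53.6 and 54.8 CPM in WT_B6, and Prmt2 was the gene that fell (-0.28). Of 13 further JmjC genes 3 rose (23.1%) and 2 fell (15.4%), the rises being Riox2 (0.73), Jmjd6 (0.71) and Riox1 (0.61), and the falls Jarid2, a Polycomb cofactor (-0.68), and Phf8 (-0.32). Of 15 lysine acetyltransferase genes 3 rose (20%), with Kat2a (0.70) and Hat1 (0.68) first, and Ncoa1 (-0.47) fell. In Tg_FvB 0 of the further lysine methyltransferase, arginine methyltransferase and JmjC genes were called, and of the acetyltransferase genes Kat6b alone was.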

How the data were processed

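RNA was sequenced as 66 bp paired-end reads, per the labels. The authors' deposited files hold counts per gene and a gene length, and the tools named are bcl2fastq and featureCounts and the build mm10, per the submitters' processing notes; no source used here gives versions, aligner or strand setting. Entries without a name (917 per file, 0.450% to 0.545% of counts) were left out. The deposited counts were tested with edgeR 4.0.16 (R 4.3.3, limma 3.58.1): TMM scaling, filterByExpr at a minimum of 10 (15261 genes kept, 11002 removed), 1 model of 15 libraries with 1 coefficient per group, Benjamini-Hochberg adjustment over all genes tested. CPM are TMM-scaled, and RPKM divide them by the deposited length. Standard errors were derived from the F statistic. The tests were tried on simulated data. Near-identical means a biological coefficient of variation under 0.06 between 2 libraries. Alternatives were RLE size factors, no filter, DESeq2 1.42.0, litter, replicate number, summed near-identical libraries, only the groups compared, and left-out libraries. Nothing says that replicates came from separate cultures beyond their embryo numbers. Values in the libraries of a comparison are given for the 6 largest rises and falls in the knockout, the transgene call, the 6 largest differences, the 4 largest rises and falls between wild types and each family's leading gene, and other members were named freely. From the further lists, the largest called rises and falls were named. Members, families and lists were chosen with earlier results of these data known. Exon overlaps come from the GENCODE annotation and promoters from RefSeq, both of GRCm38. A marker gene of the oligodendrocyte list is not reported here and was left out of its counts and sums.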

Additional observations from a re-analysis of the deposited data

Results flagged for a closer look

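Of 96 groups of 4 or 6 libraries examined for a single library far from the rest, 4 held one. Chance gives about 1 in 20 for independent libraries, and 4 of 96 does not exceed that rate. KO_B6 2 and 3 and Tg_FvB 1 to 3 are near-identical, so the rate holds only loosely here. Kdm3a stood at 149 CPM in KO_B6 1, with the other knockouts at 135 to 136. Kdm5b stood at 137 CPM in Tg_FvB 5 (others 101 to 111), Setd1a at 98.5 CPM in Tg_FvB 4 (others 77.0 to 84.8) and Hdac6 at 51.9 CPM in Tg_FvB 3 (others 46.1 to 48.0).

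The knockout effect minus the transgene effect passed the test of the difference for 17 genes. On the log2 scale it was positive for Setd6 (1.14), Kmt5a (0.76), Setd1a (0.49), Kdm3a (0.29) and Kdm2b (0.26). It was negative for Sirt2 (-1.68), Hdac11 (-1.27), Kdm4a (-0.88), Hdac9 (-0.61), Kmt2e (-0.61), Kdm5b (-0.54), Setd1b (-0.52), Kdm5a (-0.52), Hdac8 (-0.40), Kdm4b (-0.39), Kdm3b (-0.30) and Kdm1a (-0.27). Of these, Hdac8, Kdm1a, Kdm2b, Kdm3a, Kdm4b and Setd1b lost the call on leaving out a single wild-type library, and Kdm5b and Kdm3b with litter as a covariate (adjusted p = 0.061 and 0.0663).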

How the results depend on the processing

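The largest dependence was on the near-identical libraries. Summed, they left 0 called enzyme genes in each of the 4 comparisons, with 13, 1, 9 and 11 at an unadjusted p under 0.05 for the knockout, the transgene, their difference and the wild types, although every main call kept its direction. Litter as a covariate gave 17 calls in the knockout, 0 with the transgene, 11 for the difference, 10 of them among the main 17, and 14 between the wild types. A fit of only the groups compared gave 0 with the transgene and 33 between the wild types. Without KO_B6 1, Tg_FvB 4 and Tg_FvB 6, a setting added after seeing the data, the transgene comparison had 2 calls. Leaving out each library in turn gave 18 to 23 calls in the knockout, 0 to 2 with the transgene, 13 to 18 for the difference and 15 to 21 between the wild types. The replicate block gave 26, 3, 18 and 20 calls, but replicate numbers pair nothing here: same-numbered KO_B6 and WT_B6 libraries correlated at -0.02, -0.01 and -0.01, and Tg_FvB and WT_FvB at 0.08 and 0. RLE size factors, no low-count filter and DESeq2 each left 21 or 22 calls in the knockout and 1 with the transgene. Over all genes the transgene calls numbered 281, against 722 with DESeq2, 10 with litter and 1577 with the replicate block. No member called in a comparison reversed direction there in these settings. Among members that were not called some did, such as Kdm3a in the knockout (0.01, and -0.02 with RLE size factors). The cause of each change was not tested. Kdm4d, with 0 to 6 counts per library, did not pass the low-count filter, and it had only 2 counts in KO_B6 4, the library with the highest total.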
